A study of Mus musculus with 15 samples.

Results

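Megakaryocyte-erythroid progenitors (MEPs) from Dnmt3a knockout mice were compared with MEPs from wild type mice by DNA methylation, with 2 libraries on each side out of the 15 libraries of the series. The 4 libraries were chosen by labelled genotype and cell type, and no measured value entered that choice. All 15 libraries were made by reduced representation bisulfite sequencing from C57BL/6 mouse bone marrow cells. In this assay a restriction enzyme selects short, CpG-rich fragments, bisulfite converts unmethylated cytosines so that they read as T, and the share of unconverted reads at a CpG is its methylation level. Wild type MEPs carried Mx1-cre and floxed Dnmt3a alleles (Mx1-cre+;Dnmt3af/f), and knockout MEPs carried Mx1-cre with deleted alleles (Mx1-cre+;Dnmt3a-/-), so the cre transgene was present on both sides. The MEPs were sorted fresh as lineage-negative, c-Kit-positive cells without Sca1, CD34 or CD16/32. Values are also given from granulocyte-macrophage progenitors (GMPs, positive for CD34 and CD16/32) of the same genotypes with 2 libraries each, and from MEPs and GMPs labelled Mx1-cre-;Dnmt3af/f;Idh2 R140Q with 2 libraries each. A last group was 3 libraries of malignant progenitors of Mx1-cre+;Dnmt3a-/-;Idh2 R140Q mice, called double mutant here. The labels do not give the age of the mice, the induction of cre, the deleted part of Dnmt3a, or the meaning of GFP in the names of the MEP and GMP libraries of the 2 genotypes compared. They call the libraries biological replicates but do not say that each came from its own animal, so p-values measure the spread between these libraries, which may be technical in part.

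Dnmt3a is one of the enzymes that place new methyl groups on CpGs, whereas Dnmt1 copies existing methylation onto the new strand after replication. Mx1-cre is driven by an interferon-responsive promoter and is widely used to delete genes in blood-forming cells. MEPs are the marrow progenitors that give rise to red cells and platelets, and Dnmt3a loss is a common event in blood stem cells of people with clonal haematopoiesis or leukaemia. In mammalian cells CpG-rich promoters are mostly unmethylated, most CpGs elsewhere are methylated, and regions between these extremes are where cell types and genotypes usually differ.

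The wild type MEP libraries held 33938292 and 35204906 reads over CpG cytosines and the knockout MEP libraries 26086791 and 23452429. After the strands of each CpG were added, 358106 autosomal CpGs had at least 10 reads in all 4 libraries, at a median depth of 44 and 44 reads in wild type and 39 and 33 in knockout. These CpGs formed 41963 windows of 1 kb with at least 3 of them and at least 30 reads per library, and 13370 promoters, taken as 1 kb on either side of an annotated start site. The libraries also differed by genotype on the sex chromosomes, which entered no result. X chromosome reads were 2.21% and 2.25% of the autosomal number in wild type and 1.17% and 1.29% in knockout, and Y chromosome reads were 54.0 and 56.7 per 1000000 autosomal reads in wild type and 203 and 292 in knockout. The genotypes compared and whatever separates the libraries on X and Y cannot be told apart. Read depth did not check the deletion. In the 1 kb window of the Dnmt3a gene at chr12:3912001-3913000 (mm9) wild type MEPs had 230 and 289 reads and knockout MEPs 11 and 40, but Idh2 R140Q MEPs, labelled with floxed alleles, had 0 and 4. The 1 promoter taken per marker gene did not separate the sorted cell types either. All 5 measured promoters of MEP and erythroid marker genes and all 5 of GMP and myeloid marker genes lay at or below 8.75% in the 4 MEP libraries. Their wild type GMP means were at or below 6.98%. Other promoter windows of these genes could differ. A Prtn3 window was at 17.9% and 16.6% in wild type MEPs and 2.90% and 4.72% in wild type GMPs.

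Sequences are shown for a few of the windows with the largest differences, to show how many CpGs and how much sequence stand behind a window's level. Each is the plus strand of the NCBIM37 (mm9) reference from 5′ to 3′, with the CpGs measured in all 4 libraries in capitals and CpGs without enough reads left in lower case. The first is from a coding exon of Zc3h12d, a zinc-finger regulator of inflammatory transcripts, at chr10:7587239-7587480. The next, at chr4:153918158-153918290, is intronic in Prdm16, whose product is a transcription factor that maintains blood stem cells. These windows were lower in knockout MEPs.
Zc3h12d: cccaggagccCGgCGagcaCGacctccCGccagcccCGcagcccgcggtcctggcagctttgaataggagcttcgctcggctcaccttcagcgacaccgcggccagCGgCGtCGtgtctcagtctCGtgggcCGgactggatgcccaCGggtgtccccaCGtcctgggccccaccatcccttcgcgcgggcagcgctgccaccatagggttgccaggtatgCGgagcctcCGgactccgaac
Prdm16: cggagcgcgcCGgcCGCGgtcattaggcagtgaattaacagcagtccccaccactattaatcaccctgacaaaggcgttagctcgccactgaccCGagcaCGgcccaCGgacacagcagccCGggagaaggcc
The other three were higher in knockout MEPs. They come from the promoter of Emr1, which encodes the macrophage surface protein F4/80, at chr17:57498444-57498602, from an intron of Slc26a8, an anion transporter of sperm, at chr17:28819521-28819671, and from an intron of the diacylglycerol kinase gene Dgkh at chr14:79049669-79049936.
Emr1: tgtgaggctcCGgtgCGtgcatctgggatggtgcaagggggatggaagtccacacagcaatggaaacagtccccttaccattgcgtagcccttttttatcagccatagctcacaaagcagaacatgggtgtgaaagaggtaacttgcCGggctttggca
Slc26a8: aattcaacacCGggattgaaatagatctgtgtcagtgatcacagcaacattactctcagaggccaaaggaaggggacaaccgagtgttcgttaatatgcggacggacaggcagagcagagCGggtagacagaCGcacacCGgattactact
Dgkh: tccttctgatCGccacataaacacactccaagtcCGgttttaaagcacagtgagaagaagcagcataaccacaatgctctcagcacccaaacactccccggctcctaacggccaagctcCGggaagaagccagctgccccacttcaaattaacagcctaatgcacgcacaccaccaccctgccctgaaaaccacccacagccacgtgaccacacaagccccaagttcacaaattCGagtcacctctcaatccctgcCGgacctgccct
The Zc3h12d stretch holds 14 measured CpGs of 26 in 242 bases and the Prdm16 stretch 7 of 12 in 133 bases. The Emr1 stretch holds 3 of 4 in 159 bases, the Slc26a8 stretch 4 of 8 in 151 bases and the Dgkh stretch 5 of 9 in 268 bases. None of these stretches overlaps an untranslated exon in the gencode vM1 annotation.

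Knockout MEPs differed from wild type MEPs in both directions, at a small share of the measured genome. A window was called when the adjusted p of a quasi-binomial test was under 0.05 and the mean level differed by at least 10 percentage points, here called points. By that rule 296 of 41963 windows changed, or 0.705% of those tested. Of these, 160 fell (0.381%) and 136 rose (0.324%). The falls had a median of -26.65 points and sizes from 10.1 to 61.1 points, and the rises a median of 18.8 and sizes from 10.01 to 47.9 points. At least 25 points separated the genotypes in 88 falls and 37 rises. Called windows held few CpGs, with a median of 5 in falls and 4 in rises. Without the adjustment, 7238 windows had p under 0.05. The calls rested on these libraries and on this model: the count was 3 without knockout replicate 1, 515 without knockout replicate 2, 147 without wild type replicate 1 and 50 without wild type replicate 2, and limma called 2 windows and edgeR, with 1 negative binomial dispersion for all windows, called 1. A level in sorted cells is a mean over cells, so a change in the make-up of the sort and a change in each cell cannot be told apart.

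Among the falls held by genes, the Zc3h12d exon moved most. Its level was 69.4% and 85.3% in the wild type libraries and 10.7% and 28.6% in the knockout libraries, or 77.4% ± 11.2 against 19.7% ± 12.7 (SD, n = 2 libraries each), and it fell by 57.7 points (adjusted p = 0.032, quasi-binomial model). All 14 CpGs of the sequence above were lower in knockout, so no single CpG made the difference. In GMPs the same exon was at 80.6% and 77.9% in wild type and 13.6% and 36.1% in knockout. Both knockout cell types lay far below both wild type cell types there, and Idh2 R140Q MEPs, at 69.3% and 61.5%, did not.

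Prdm16 held 3 windows that fell, all in introns. The window shown above was at 70.8% and 79.6% in wild type MEPs and 3.90% and 33.5% in knockout MEPs, and fell by 56.5 points (adjusted p = 0.0277). At 153960459 to 153960562 on chromosome 4 the levels were 78.5% and 76.1% in wild type and 31.1% and 50% in knockout (adjusted p = 0.0326), and at 153915096 to 153915261 they were 62.6% and 71.4% against 28.4% and 42.6% (adjusted p = 0.0309). In each window the knockout libraries lay below both wild type libraries, with knockout replicate 1 the lower of the pair. Double mutant cells were low at the same places, at 14.5%, 17.3% and 10.3% in the first window and 13.4%, 11.1% and 23.9% in the second.

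Nfix, a nuclear factor I transcription factor that acts in blood stem and progenitor cells, also held 3 such windows, next to each other in its introns on chromosome 8. The first, with 15 CpGs from 87308351 to 87308981, was at 67.6% and 78.3% in wild type and 23.2% and 39.0% in knockout. The next, with 6 CpGs, was at 93.7% and 95.1% in wild type and 29.5% and 64.9% in knockout, and the last, with 3 CpGs, at 93.2% and 92.8% against 43.8% and 64.9%. The adjusted p-values were 0.0149, 0.0201 and 0.0178. The stretch was nearly full in wild type at its last 2 windows and partly emptied in knockout, more so in replicate 1. Idh2 R140Q MEPs were at 94.7% and 95.5% in the middle window, close to wild type. Double mutant cells were at 80.6%, 84.3% and 54.6% there.

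Lrrfip1, a nucleic acid sensor and transcriptional repressor, held 2 adjoining intron windows that fell. The larger change, over 10 CpGs at chr1:92914046-92914371, was from 71.7% and 82.9% in wild type to 19.23% and 38.3% in knockout (adjusted p = 0.00925). Its neighbour, with 3 CpGs, went from 93.6% and 98.0% to 54.5% and 69.8%. Double mutant cells were not low at Lrrfip1, at 91.9%, 92.9% and 93.8% in the window of 10 CpGs. In the plot of single CpGs the drop at Lrrfip1 was steepest over the 7 CpGs at the far end. Mn1, a leukaemia fusion partner, held 2 adjoining windows as well, at 66.5% and 74.6% in wild type and 30.8% and 40.1% in knockout for the first and 92.2% and 94.4% against 77.1% and 83.5% for the second. Double mutant cells were at 50.2%, 41.0% and 37.5% in the first and 93.4%, 95.2% and 94.2% in the second. Cuedc1 and Anks1b were the other genes with more than 1 fallen window.

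**Figure D1:**
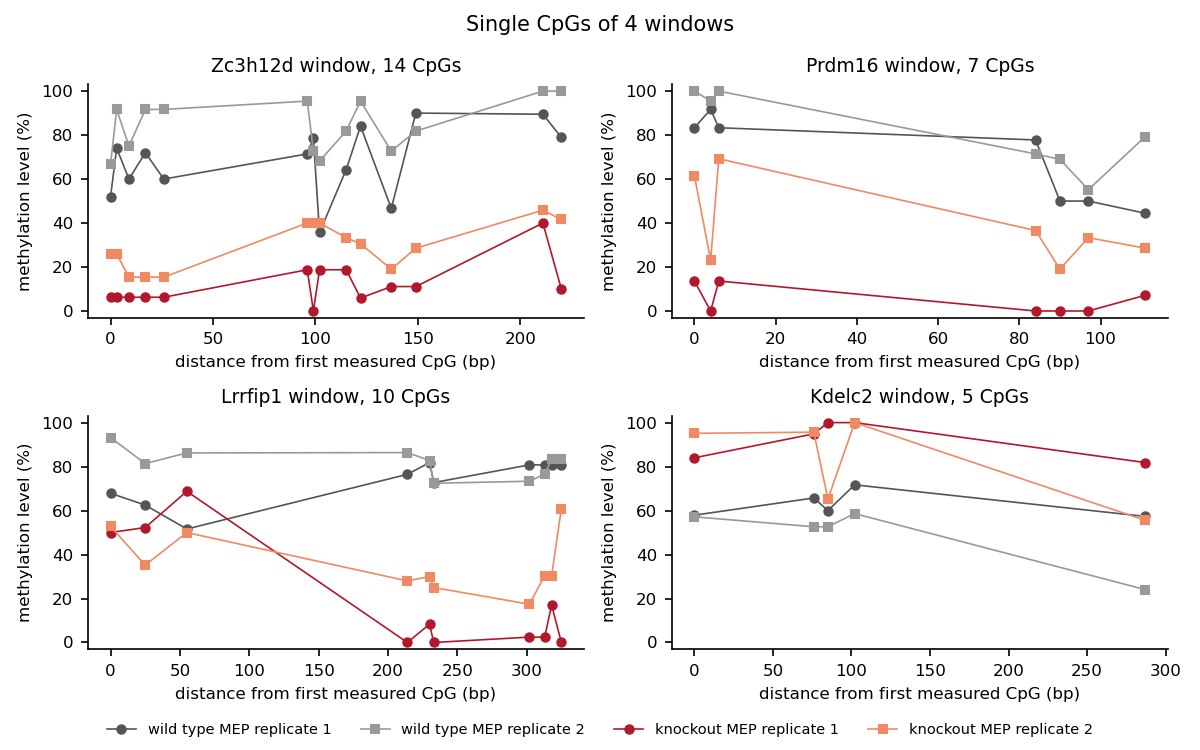
Methylation level in percent of each measured CpG against its distance in bp from the first measured CpG of the window, in 4 windows; grey lines are the 2 wild type MEP libraries and red and orange lines the 2 knockout MEP libraries. All 14 CpGs of the Zc3h12d window are lower in knockout, and in the Kdelc2 window, at 62.7% and 43.4% as a whole in wild type and 93.9% and 83.2% in knockout, the order is turned round.

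The largest fall of all was 188576 bp from Ifng, the interferon gamma gene, over 3 CpGs at chr10:118066679-118066689. It was at 90.7% and 89.6% in wild type and 15.2% and 42.9% in knockout, and fell by 61.1 points (adjusted p = 0.0308). Knockout replicate 1 had only 33 reads there. At that place all other mutant groups were low too, with Idh2 R140Q MEPs at 33.3% and 18.2% and Idh2 R140Q GMPs at 9.09% and 49.4%. Knockout GMPs were at 42.3% and 43.6% and double mutant cells at 36.9%, 43.2% and 51.3%, while wild type GMPs were at 92.4% and 91.3%. A window of 3 CpGs 57944 bp from the deubiquitinase gene Usp46, at chr5:74522399-74522510, went from 73.3% and 95.5% to 8.78% and 39.0% (adjusted p = 0.0415). All mutant groups lay below all wild type libraries there as well. Idh2 R140Q MEPs were at 36.9% and 14.6%, double mutant cells at 43.1%, 28.3% and 28.9%, and wild type GMPs at 59.8% and 85.5%. The fall with the smallest adjusted p lay 21452 bp from the predicted gene Gm16432 at chr1:179900086-179900114. Its 5 CpGs were nearly full in wild type and moved unevenly. In knockout the CpG at 179900102 was at 8.16% and 29.1%, and that at 179900114 at 98.0% and 94.6%. As a whole the window went from 98.0% and 99.3% in wild type to 40.6% and 49.6% in knockout. It fell by 53.5 points (adjusted p = 0.000315, quasi-binomial model). The same level stood in every mutant group, at 46.5% and 52.1% in Idh2 R140Q MEPs, 42.7% and 52.8% in knockout GMPs, 54.1% and 51.2% in Idh2 R140Q GMPs and 45.96%, 44.6% and 47.2% in double mutant cells, while wild type GMPs were at 88.3% and 94.2%. Like those near Ifng and Usp46, the window thus divides the wild type libraries from all others, as the X and Y chromosome reads do. The part of that library difference in these falls was not tested. The window near Gm16432 was also the 1 called by both limma and edgeR.

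The remaining falls among the 14 largest followed the same order of libraries. An intron window of Pitpnm2, a phosphatidylinositol transfer protein, went from 56.1% and 67.1% to 9.72% and 16.2% (adjusted p = 0.012). Windows in introns of Strn3, a subunit of the PP2A phosphatase, and 7542 bp from the homeobox gene Hlx fell by 48.4 and 47.2 points. An intron window of Zranb3, a helicase of stalled replication forks, went from 71.5% and 75.5% to 3.1% and 42.6% (adjusted p = 0.0492). That window holds the pseudogene Rpl28-ps1, whose reads may map to copies, so its level is less certain. Of the 78 CpGs in the 14 windows, 78 were lower in knockout by mean level, and at 72 both knockout libraries were below both wild type libraries. The windows were chosen by size, so that count only describes the direction at their CpGs. The size was uneven within some windows, as near Gm16432.

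**Figure D2:**
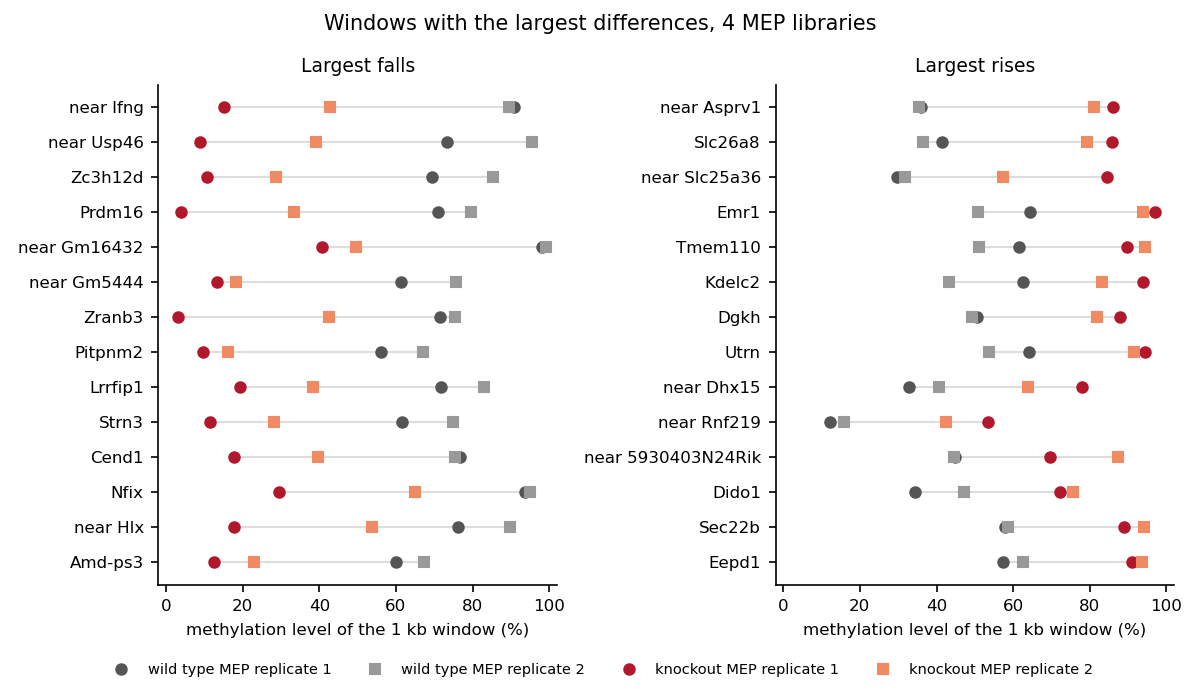
Methylation level in percent of the 14 windows with the largest falls and the 14 with the largest rises, 1 line per window with its gene or nearest gene; grey symbols are wild type MEP replicates and red and orange symbols knockout MEP replicates. Both knockout libraries lie beyond both wild type libraries in every window drawn, which the choice of windows required, and knockout replicate 1 is below knockout replicate 2 in all 14 falls.

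In most of the named windows that rose, wild type MEPs were at intermediate levels and knockout MEPs at high levels. The Emr1 promoter window was at 64.5% and 50.7% in wild type and 97.1% and 93.8% in knockout, a rise of 37.8 points (adjusted p = 0.012). In the Slc26a8 intron the wild type libraries were at 41.5% and 36.6% and the knockout libraries at 85.9% and 79.3%, a rise of 43.5 points (adjusted p = 0.0148). The Dgkh intron went from 50.7% and 49.3% to 87.9% and 81.9%, a rise of 34.9 points (adjusted p = 0.0362). At the last 3 CpGs of the Slc26a8 sequence above, wild type libraries ranged from 19.4% to 35.5% and knockout libraries from 66.7% to 100%, so its change sat mainly there.

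Several other rises lay within genes. A coding exon of Kdelc2, a glycosyltransferase of the endoplasmic reticulum, went from 62.7% and 43.4% to 93.9% and 83.2% (adjusted p = 0.0415). An intron window of Sec22b, a membrane fusion protein of the secretory pathway, went from 58.0% and 58.8% to 88.8% and 94.1% (adjusted p = 0.0159). Tmem110 rose in an untranslated exon, from 61.6% and 51.2% to 89.6% and 94.4%. Windows in a coding exon of Dido1 and an intron of Eepd1 rose by 33.2 and 32.3 points. Dido1 had few reads in wild type, 70 and 70 against 349 and 139 in knockout.

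Far from genes, the largest rise of all lay 12585 bp from Asprv1, a skin protease gene. Its 3 CpGs were at 35.8% and 35.5% in wild type and 86.0% and 81.2% in knockout, a rise of 47.9 points (adjusted p = 0.0259). This level rests on fewer wild type reads than that of Dido1, 53 and 31 against 186 and 85 in knockout. Both wild type GMP libraries had fewer than 30 reads there. A window 27508 bp from the mitochondrial nucleotide carrier gene Slc25a36 went from 29.6% and 31.7% to 84.6% and 57.4%. Near Rnf219, 154300 bp away, the level rose from 12.3% and 15.8% to 53.5% and 42.5%. Across the 14 largest rises, 52 of 54 CpGs were higher in knockout and 50 had both knockout libraries above both wild type libraries. As for the falls, these windows were chosen by size and by libraries that do not overlap, so the counts only describe direction at their CpGs. Of all 41963 windows, 39.5% had MEP libraries of the 2 genotypes that did not overlap, in either direction.

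Several of the windows that rose were low in wild type GMPs, and their levels in GMPs are given beside them. At the Emr1 window wild type GMPs were at 32.7% and 35.9%, below wild type MEPs, and knockout GMPs at 57.5% and 59.2%. Sec22b was at 5% and 12.5% in wild type GMPs and 40.1% and 42.2% in knockout GMPs. Slc26a8 was at 17.2% and 15.8% in wild type GMPs and 26.2% and 45.2% in knockout GMPs. Each of these windows was lowest in wild type GMPs, intermediate in wild type MEPs and high in knockout MEPs, and Idh2 R140Q MEPs were high as well, at 95.5% and 88.5% for Emr1, 95.5% and 94.5% for Sec22b and 93.3% and 88.6% for Slc26a8. Windows that separate the cell types were therefore drawn from the Idh2 R140Q libraries alone, as those with at least 30 points between GMP and MEP. In 80 windows lower in Idh2 R140Q GMPs, wild type GMPs averaged 18.2% and 17.5%, wild type MEPs 46.3% and 40.6% and knockout MEPs 49.6% and 54.9%. In 76 windows lower in Idh2 R140Q MEPs, wild type MEPs averaged 40.8% and 50.2% and knockout MEPs 41.0% and 48.9%. Knockout MEPs lay above wild type MEPs in the first set and overlapped them in the second. The purity of the sorts as a part of the rises was not tested. Idh2 R140Q MEPs and GMPs differed by less than 10 points in 36419 of the 38839 windows measured in both. Among these were 108 of 133 rises and 134 of 153 falls, each a smaller share than that of all windows.

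Windows of genes from 12 lists on blood cell types, methylation enzymes, leukaemia, development, imprinting and other functions gave 15 called windows. In the stem and early progenitor list, 5 of 209 windows fell and 0 rose, beside 160 falls and 136 rises over all 41963 windows, and 3 of the 5 were the Prdm16 windows above. The others were an intron window of Msi2, an RNA-binding protein that sustains stem cells, from 53.1% and 54.2% to 21.7% and 21.5% (adjusted p = 0.012), and an intron window of Mecom, which encodes the stem cell factor EVI1, from 86.1% and 89.1% to 59.7% and 52.9% (adjusted p = 0.0159). At Mecom knockout GMPs stayed high, at 82.1% and 78.4%, and so did double mutant cells, at 95.1%, 92.8% and 92.8%. Msi2 was lower still in double mutant cells, at 5.80%, 5.79% and 1.94%. The median difference over the 209 windows of the list was 0.00 points, against 0.50 over all windows.

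Among erythroid and megakaryocyte genes, Zfpm1 fell and Itgb3 rose. Zfpm1 encodes FOG1, the partner of GATA1 in red cell and platelet formation, and an intron window of 8 CpGs went from 23.3% and 36.6% to 7.23% and 9.45% (adjusted p = 0.0236). The same window was at 52.0% and 52.9% in wild type GMPs and 5.67% and 6.60% in knockout GMPs, so the knockout levels of both cell types were alike and low. Idh2 R140Q MEPs were as low, at 6.48% and 4.41%, and double mutant cells at 0.467%, 1.60% and 4.29%. Itgb3 encodes an integrin of platelets, and a coding exon window went from 62.5% and 53.5% to 94.6% and 85.7% (adjusted p = 0.012). The erythroid list had 1 of 114 windows called and the megakaryocyte and platelet list 2 of 78, Zfpm1 counting in both, beside 0.705% over all windows. With counts this small, nothing particular to these lists can be read from them.

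In the other lists 0 to 2 windows each were called, beside the same 0.705%. Among developmental transcription factors 2 of 647 windows fell, beside 0.381% of all windows, a coding exon of the heart factor Hand1 from 50% and 61.6% to 23.2% and 29.1% and a window 178327 bp from Foxc2 from 29.3% and 50.2% to 11.2% and 15.3%. A window of 19 CpGs 68722 bp from Ezh2, the Polycomb methyltransferase, went from 38.1% and 39.2% to 14.3% and 25.5%. It was the 1 called among 109 windows of the methylation machinery. Its depth was unusually high, with 8196 and 7961 reads in wild type and 14338 and 8297 in knockout, and the cause of that depth was not tested. In the imprinted list Kcnq1 fell, from 29.2% and 15.9% to 0.862% and 2.75%, and Slc38a4 rose, from 60.3% and 40.9% to 82.2% and 73.9%. Ebf1, a B cell factor, rose in an intron from 89.0% and 81.4% to 97.3% and 97.4%, and Mov10l1, of the germline piRNA pathway, rose from 61.9% and 51.3% to 82.5% and 86.9%. None of 264 windows of leukaemia and tumour suppressor genes, 113 of Hox genes or 117 of ribosomal protein genes was called by the quasi-binomial test, with 48, 12 and 30 at an unadjusted p under 0.05, beside 7238 of all 41963 windows.

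Few promoters were called, and most of those fell. By the same rule 25 of 13370 promoters were called (0.187%), of which 20 fell (0.15%) and 5 rose (0.0374%), and 2271 had an unadjusted p under 0.05. The count was 0 without knockout replicate 1 or without wild type replicate 2, 3 without wild type replicate 1 and 158 without knockout replicate 2. limma and edgeR called 0 promoters, with 1597 and 1029 at an unadjusted p under 0.05.

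The fallen promoters spanned wild type levels from 13.03% and 11.2% up to 76.6% and 75.5%. The promoter of Cend1, which drives cell cycle exit of neurons, fell most, from 76.6% and 75.5% to 17.6% and 39.7% (adjusted p = 0.0432). Prom2, a membrane protein related to the stem cell marker prominin, went from 54.3% and 51.0% to 14.6% and 23.2% (adjusted p = 0.0291), and double mutant cells were at 16.5%, 13.1% and 14.1%. Sec24a, a coat protein of vesicles leaving the endoplasmic reticulum, went from 47.7% and 44.7% to 21.4% and 27.4%. The Kcnh4 and Rilp promoters fell by 22.6 and 15.3 points.

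Lower starting levels were found at several promoters with many CpGs. Vash1, an inhibitor of vessel growth, went from 17.5% and 20.6% to 2.84% and 7.01% over 24 CpGs (adjusted p = 0.0394). Tcfap2a, the transcription factor AP-2 alpha, went from 14.2% and 14.96% to 2.03% and 6.69% over 29 CpGs (adjusted p = 0.0394). Ampd3, an AMP deaminase of red cells, went from 17.96% and 18.6% to 3.32% and 5.38% over 19 CpGs (adjusted p = 0.0351). These changes were small in points because the wild type level was low. Tradd, an adaptor of the tumour necrosis factor receptor, went from 22.6% and 17.0% to 4.97% and 4.24%, and Eps15, an endocytosis protein, from 15.8% and 13.8% to 2.10% and 5.33%. Xpnpep3 and St13 start close together in opposite directions and share the same 9 CpGs, so their 2 calls are 1 measurement, from 13.03% and 11.2% to 0.674% and 3.19%. Idh2 R140Q MEPs were low there too, at 1.69% and 3.19%. They were at 1.81% and 3.36% at Eps15, 6.85% and 2.54% at Tcfap2a and 10.1% and 3.84% at Vash1. At Ampd3 they were at 14.3% and 8.65%, and at Tradd they were not low, at 23.4% and 29.4%. What part of these falls goes with the difference between wild type and the other libraries was not tested.

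The 5 promoters that rose included 2 of the 13 in the granulocyte and macrophage list, Emr1 and Csf2ra. Csf2ra encodes the alpha chain of the GM-CSF receptor, and its promoter rose from 19.7% and 12.1% to 44.2% and 46.4% over 12 CpGs at chr19:61303800-61304538 (adjusted p = 0.0291). Wild type GMPs were at 9.54% and 7.33% there and knockout GMPs at 18.8% and 29.8%. Ubash3a, a suppressor of T cell receptor signalling, rose from 34.1% and 40.3% to 66.3% and 66.0%, and the predicted gene Gm9396 from 71.0% and 68.9% to 85.7% and 88.2%. In the other 11 lists no promoter was called, out of 24 erythroid, 17 megakaryocyte, 31 stem cell, 26 methylation machinery, 55 leukaemia, 79 developmental and 52 ribosomal protein promoters among others. Unadjusted, 9 leukaemia, 8 developmental and 17 ribosomal protein promoters had a p under 0.05, beside 2271 of all 13370 promoters. The list medians lay between -0.61 points for imprinted genes and 0.41 for ribosomal protein genes, against 0.17 over all promoters.

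Beyond single calls, the sign of the difference followed the starting level and the place. Levels in wild type GMPs, which take no part in the comparison, were used to sort windows and promoters. The class is independent of the MEP reads but not of the MEP state, since both cell types share most of their methylation. Promoters at 20 to 50% averaged 30.2% and 32.1% in wild type MEPs and 21.1% and 28.5% in knockout MEPs, and 76.2% of these 517 promoters were lower in knockout. Those at 50 to 80% averaged 62.2% and 65.7% in wild type against 52.2% and 61.7% in knockout. Both knockout libraries lay below both wild type libraries in both classes. Of the 10459 promoters under 5%, 29.6% were lower in knockout, and the mean difference was 0.33 points.

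Windows were lower in knockout by mean at 20 to 50% and higher above 80%, while called rises were most frequent at 50 to 80%. Windows at 20 to 50% stood at -4.21 points on average. Their libraries overlapped, at 34.12% and 36.2% in wild type MEPs and 27.7% and 34.145% in knockout MEPs. Among these 2254 there were 57 called falls (2.53%) and 19 called rises (0.843%). Between 50 and 80% there were 51 falls (1.31%) and 56 rises (1.44%) among 3894. The mean difference of these windows was -0.77 points, against -6.93 points for promoters of that class. Their libraries overlapped, at 65.8% and 69.5% in wild type MEPs and 64.0% and 69.8% in knockout MEPs. Above 80%, 34 fell (0.217%) and 48 rose (0.306%) among 15681, beside 0.381% and 0.324% of all windows. Knockout lay 2.43 points higher on average above 80%, with 24.9% of windows lower in knockout. Over all 41963 windows, 35.3% were lower in knockout.

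**Figure D3:**
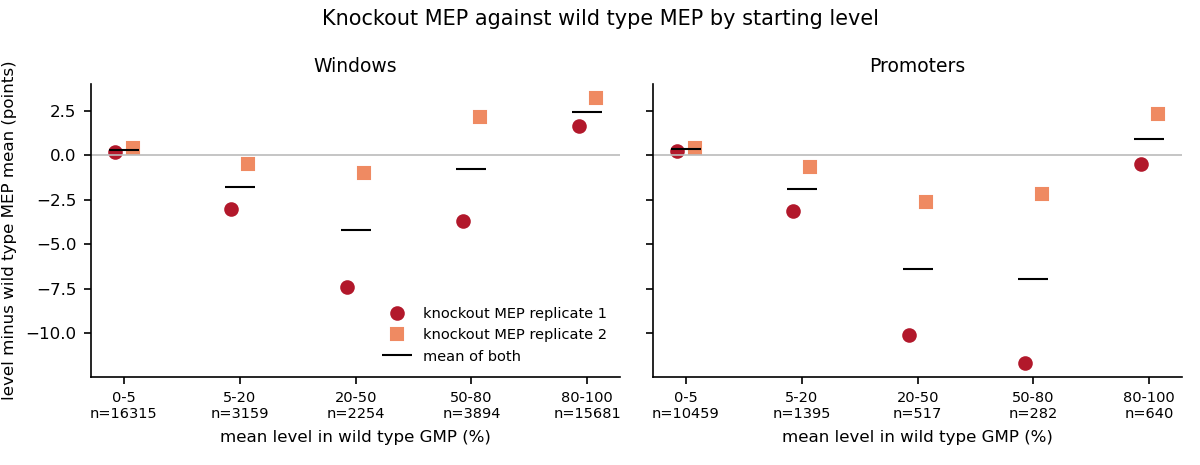
Mean level of each knockout MEP library minus the wild type MEP mean, in points, for windows and promoters sorted by their mean level in wild type GMPs in percent; red and orange symbols are the 2 knockout libraries and bars their mean, and n is the number of windows or promoters. Promoters between 20 and 50% lie below 0 in both libraries, and windows at 80 to 100% lie above 0 in both.

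The distance from a start site graded the difference in the same way. Among CpGs at 20 to 80% in wild type GMPs, the 2673 within 250 bp of a start site averaged 43.2% and 47.0% in wild type MEPs and 33.5% and 41.0% in knockout MEPs, a difference of -7.84 points. From 250 to 500 bp the libraries stood at 43.4% and 46.2% against 35.1% and 42.1%. From 500 to 1000 bp the groups overlapped, at 46.8% and 49.9% against 40.1% and 47.0%. The mean difference shrank with each step, to -2.37 points at 2 to 5 kb and -0.46 points at 20 to 50 kb, and turned to 1.79 points beyond 50 kb, where the levels were 58.1% and 61.6% against 59.1% and 64.1%. The gradient from near to far was present in each knockout library alone, from -11.6 to -0.74 points in replicate 1 and from -4.11 to 4.32 points in replicate 2, so replicate 1 stayed below the wild type mean at every distance and replicate 2 did so only near start sites.

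**Figure D4:**
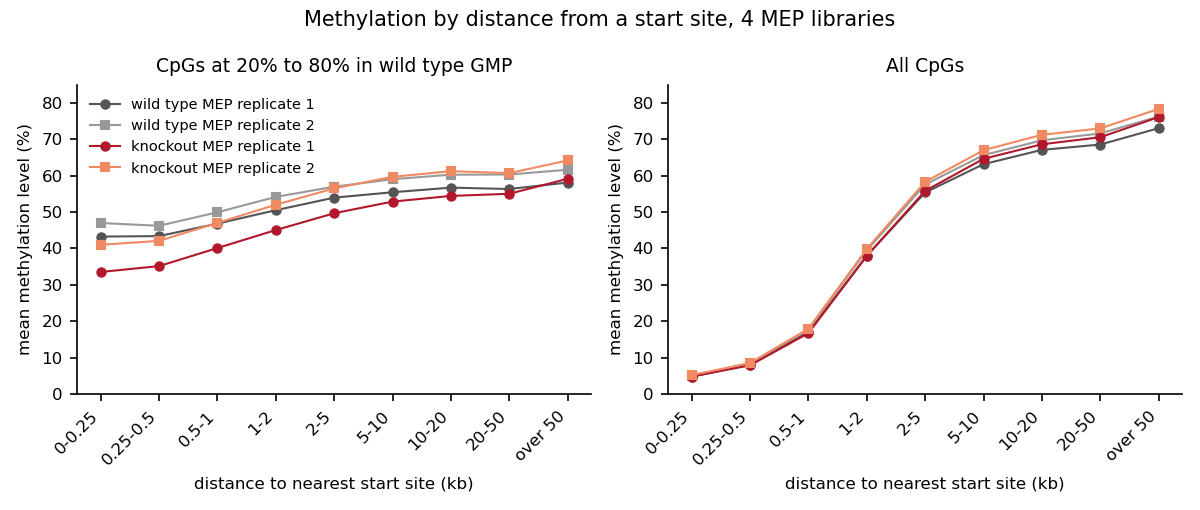
Mean methylation level in percent of the 4 MEP libraries by distance to the nearest start site in kb, for CpGs at 20% to 80% in wild type GMPs (left) and for all CpGs (right); grey lines are wild type and red and orange lines knockout replicates. On the left both knockout lines lie below both wild type lines within 0.5 kb, and on the right the 4 lines run close together.

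Averaged over all CpGs, the genotypes did not differ beyond the libraries' spread. The 358106 CpGs averaged 37.5% and 39.1% in wild type and 38.4% and 39.9% in knockout, a difference of 0.86 points (exact two-sided permutation test, p = 0.667). With 2 libraries against 2 the smallest p this exact test allows is 0.333, so it cannot pass 0.05. CpGs within 1 kb of a start site averaged 7.48% and 7.83% in wild type and 7.41% and 7.99% in knockout. When those CpGs were limited to the 6643 at 20 to 80% in wild type GMPs, the libraries stood apart, at 44.4% and 47.7% in wild type against 36.1% and 43.2% in knockout, and the difference was -6.41 points (p = 0.333, exact permutation test). CpGs above 80% in wild type GMPs averaged 87.9% and 91.3% in wild type MEPs and 91.1% and 93.0% in knockout MEPs, which overlap. Introns and intergenic CpGs were 1.96 and 2.00 points higher in knockout, also with overlap. Pooling reads, so that deep CpGs weigh more, turned the difference to -6.10 points over all CpGs, -1.60 points within 1 kb of a start site and -2.74 points between genes. A pooled level also depends on how a library's reads are spread over low and high CpGs. By level in wild type GMPs, the pooled differences were 0.18 points below 20%, -2.89 points at 20 to 80% and 2.97 points above 80%. The replicates themselves were apart by a like amount: over the 6244 windows at 20 to 80%, replicate 1 was below replicate 2 by a median difference of -2.69 points in wild type and -4.66 points in knockout.

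The fallen and the risen windows lay in different kinds of places. Of the 160 falls, 45 were promoter windows (28.1%), 39 lay in introns, 21 in coding exons and 51 between genes (31.9%). Of the 136 rises, 7 were promoter windows (5.15%), 39 lay in introns, 20 in coding exons and 68 between genes (50%). Among all windows at 20 to 80% in wild type GMPs, 18.6% were promoter windows and 44.3% intergenic, and among all windows tested 42.1% and 28.2%. Falls were richer in CpGs than rises, with a median of 30 CG per kb against 19, beside 20 in the windows at 20 to 80% and 27 in all windows. Median GC content was 55.2% in falls, 48.2% in rises, 50.5% in the windows at 20 to 80% and 52.6% in all windows. Median wild type level was 53.8% in falls and 71.5% in rises, so the place and the starting level of called windows went together.

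The bases next to a CpG went with the size of the difference as well. Among CpGs at 20 to 80% in wild type GMPs, those in the context GCGC stood at -5.03 points on average (n = 1517), and those in GCGA and CCGC at -4.91 and -4.80 points. CCGG, the cut site at fragment ends and the context of 24390 of these CpGs, stood at -0.77 points, and TCGA at 2.40 points (n = 647). Contexts are not spread evenly over the genome, so they were also compared by place. Within 1 kb of a start site GCGA, GCGC and CCGC stood at -9.06, -8.39 and -7.77 points and CCGG at -5.78 points. Beyond 5 kb the same 3 contexts stood at -2.72, -2.63 and -2.48 points and CCGG at 0.68 points. Other contexts changed places with CCGG between the distances: ACGC stood at -4.89 points near and -1.58 points far, and CCGA at -7.54 and 1.41 points. Over all distances the contexts also differed in mean wild type MEP level, at 47.8% for GCGC, 50.7% for GCGA and 49.4% for CCGC against 57.4% for CCGG and 56.8% for TCGA. The part of that level in the differences was not tested. Knockout replicates 1 and 2 stood at -4.39 and 2.86 points at CCGG, and at TCGA the libraries of the genotypes overlapped. These values are a description over CpGs of the same 4 libraries and carry no test.

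Knockout and wild type GMPs offered libraries that took no part in choosing the direction of a call, although all 15 libraries set the spread in the model and GMPs and MEPs may come from the same animals. Of 157 fallen windows measured in GMPs, 152 (96.8%) had both knockout GMP libraries below both wild type GMP libraries, against 19.7% of all windows and 32.5% of windows at 20 to 80%. Of 134 risen windows, 101 (75.4%) had both knockout GMP libraries above, against 14.2% and 20.4%. The falls and rises of MEPs were thus present in most cases in knockout GMPs. A difference between the knockout effects of the 2 cell types passed the adjusted threshold in 0 of 41776 windows by the quasi-binomial model (2581 at an unadjusted p under 0.05), and in 0 by limma and by edgeR, and the count was 7 without wild type MEP replicate 2. The lack of a call does not show that the effects are equal. Of the named windows 1 stood out after its values were seen, with a rise in MEPs and a fall in GMPs. It lies 149496 bp from the splicing helicase gene Dhx15. It went from 32.9% and 40.8% to 78.1% and 63.8% in MEPs but from 87.4% and 91.0% to 76.9% and 67.5% in GMPs (adjusted p of the difference 0.39, quasi-binomial model). Some other windows that rose in MEPs moved little in GMPs. In GMPs Dgkh went from 41.9% and 52.5% to 40.9% and 52.7%, and Kdelc2 from 19.5% and 24.5% to 21.9% and 30.7%. Itgb3, of the list windows, went from 48.3% and 49.6% to 49.6% and 61.8% there.

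Levels in the other genotypes are set beside these without a test, since Idh2 R140Q and knockout MEPs share their wild type controls. Over the 152 fallen windows measured in all 15 libraries, wild type MEPs averaged 51.5% and 55.5%, knockout MEPs 21.2% and 29.7%, Idh2 R140Q MEPs 47.4% and 46.2%, and double mutant cells 44.1%, 45.7% and 43.5%. Knockout GMPs, at 29.97% and 32.2%, were the group nearest to knockout MEPs. Over the 129 risen windows wild type MEPs averaged 67.2% and 66.4% and knockout MEPs 87.2% and 85.9%. All the mutant groups stood high in these windows, with Idh2 R140Q MEPs at 81.2% and 81.0%, double mutant cells at 80.5%, 80.8% and 80.04% and knockout GMPs at 77.4% and 77.3%, while wild type GMPs were at 66.9% and 66.7%. The wild type libraries, which hold the fewest Y chromosome reads, were thus the lowest of all groups in the risen windows, and the part of that library difference in the rises was not tested.

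**Figure D5:**
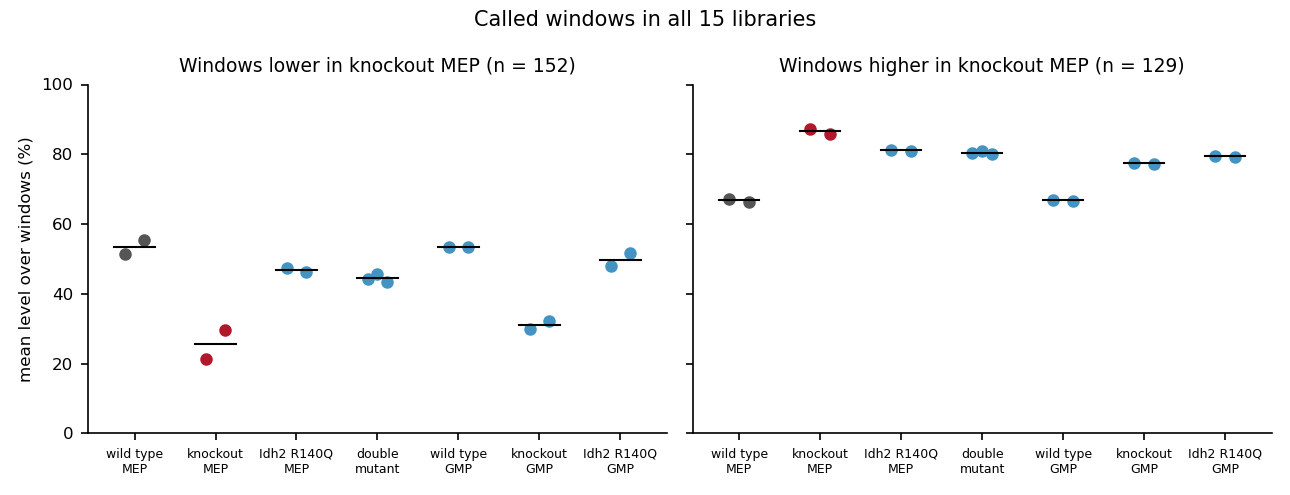
Mean methylation level in percent over the windows lower (left, n = 152) and higher (right, n = 129) in knockout MEPs, for each of the 15 libraries by group; points are libraries and bars group means. On the left knockout MEPs and knockout GMPs are the lowest groups, and on the right wild type MEPs and wild type GMPs are.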

How the data were processed

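The files hold, per the labels, reduced representation bisulfite sequencing of 15 libraries, and reads were aligned with BSMAP 2.74 to mm9, per the submitters' processing notes. How duplicates and adapters were handled, and how complete conversion was, is not given in the sources used here. The deposited values used are counts of methylated and of all reads per CpG cytosine, as the authors left them and with no minimum of coverage. PCR reads without molecular identifiers are not independent molecules, so read counts overstate the precision of a level.

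Both strands of a CpG were added, and CpGs with at least 10 reads in all 4 MEP libraries were kept. Windows of 1000 bp with at least 3 CpGs, and promoters, entered a quasi-binomial model of 7 group means over the 15 libraries with at least 30 reads each. Dispersions were squeezed with limma 3.58.1 and not allowed under 1, and p-values are Benjamini-Hochberg adjusted over all windows or promoters. The model was tested on simulated data. Alternatives were limma on log2 ratios with 1 read added to each count, edgeR 4.0.16 with a common negative binomial dispersion, a replicate block, the 4 libraries alone, other coverage, window and difference limits, and leaving out each library. Named windows are the 14 largest falls and rises among called windows whose libraries do not overlap, at most 1 per 10 kb, together with called promoters of list genes and genes with 2 or more called windows in 1 direction. Promoters and list windows beyond that rule were picked from all calls after their values were seen. The members and lists were chosen with earlier results of these data known. Mean levels weight each CpG equally and were compared with exact permutation tests. Genes come from gencode vM1 and sequences from NCBIM37. Python 3.11.15 and R 4.3.3 were used.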

Additional observations from a re-analysis of the deposited data

Results flagged for a closer look

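Y chromosome reads, which entered no comparison, stood above the control libraries in both knockout MEP libraries. They were 202.5 per 1000000 autosomal reads in knockout replicate 1 and 291.9 in replicate 2, against 54.0 and 56.7 in wild type MEPs. X chromosome reads went the other way, at 1.17% and 1.29% of the autosomal number in knockout and 2.21% and 2.25% in wild type.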

How the results depend on the processing

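The settings of the dispersion prior and the restriction to windows alike in both Idh2 R140Q cell types were chosen after seeing the data, and all others were planned. The count of 296 called windows was 125 at 25 points, 164 at 20 reads per CpG, 188 over CpGs read in all 15 libraries, 158 and 172 with the prior taken from all or from partly methylated windows, 2 with limma, 1 with edgeR and 1 with the 4 libraries fitted alone. It ranged from 3 to 515 when 1 library was left out, with 3 without knockout replicate 1, 515 without knockout replicate 2, 147 without wild type replicate 1 and 50 without wild type replicate 2. An arm of 1 library is assumed there to vary like the other groups. With 500 bp windows it was 211, and 242 in windows alike in both Idh2 R140Q cell types, which were 36419 of 38839. For a named window, only its 500 bp part with more CpGs was compared. The windows 23252 and 25216 bp from Gas8 rose by 14.8 and 16.9 points at 1 kb. Their 500 bp parts changed sign, at -0.0064 and -0.99 points, so the rises sat at CpGs outside those parts. The 25 called promoters became 8 at 25 points, 14 within 500 bp of a start site, 0 with limma, with edgeR, with the 4 libraries alone and with the prior from all promoters, 1 with the prior from partly methylated ones, and 0 to 158 with 1 library left out. The count of windows where the knockout effect differed between cell types was 0 to 7 in that case.

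Replicate numbers are not said to pair knockout with wild type libraries, and deviations of same-numbered libraries were barely correlated from window to window (correlation 0.044). That correlation cannot show a shift common to all windows. Replicate 1 was the lower in both genotypes over the 6244 windows at intermediate level in wild type GMPs. Its median difference from replicate 2 was -2.69 points in wild type and -4.66 points in knockout. The cause of this shared order was not tested. With a replicate block 42 windows and 0 promoters were called, and 10 of the 47 named windows were among them.

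Weighting by reads in place of CpGs moved the mean differences to -6.10 points over all CpGs, -1.60 within 1 kb of a start site, -3.81 from 1 to 5 kb, -1.25 in exons and -2.74 between genes. Such values also depend on how each library's reads are spread over low and high CpGs. Within classes of wild type GMP level they were 0.18 points below 20%, -2.89 at 20 to 80% and 2.97 above 80%. Depth limits single windows, since the largest falls and rises rest on as few as 30 reads in a library.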

Other observations

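A window 568683 bp from 5930403N24Rik rose from 44.7% and 44.4% to 69.6% and 87.3%, but its 4 CpGs did not move together. At 2 of them the knockout level was lower by mean, at -26.6 and -22.6 points, and at the others it went from near 0 in wild type to between 90.7% and 97.1% in knockout. A CpG at or below 5% in both wild type libraries and at or above 80% in both knockout libraries occurred at 3 of 358106 CpGs, and the reverse at 1. In these counts a base difference that turns C into T reads like an unmethylated C, and its part in that window was not tested.

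The rise in an intron of the utrophin gene Utrn, from 64.0% and 53.6% to 94.4% and 91.5%, went with unequal depth. The window had 89 and 97 reads in wild type and 3249 and 613 in knockout, and its change sat mainly at 1 of 3 CpGs, which went from 22.6% and 13.5% to 94.8% and 83.8%.

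Binding motifs of blood transcription factors were counted on both strands in the reference sequence of each 1 kb window. AGATAA, which GATA factors bind, was present in 23.8% of the falls, 33.8% of the rises, 30.4% of all windows and 35.7% of windows at 20 to 80% in wild type GMPs. TGTGGT, which RUNX factors bind, was present in 45%, 53.7%, 45.4% and 50.8% of these sets, and GAGGAAGT, which PU.1 binds, in 5%, 5.15%, 6.23% and 7.18%. These shares describe the windows, and a match is not a bound site.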
